A study of Homo sapiens with 5 samples.

Results

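The mitosis, spindle and kinetochore genes described here are 52 genes that act between the entry into mitosis and the separation of the daughter cells. They were chosen by their known roles, as a list of gene symbols, with earlier results of these data known, so the choice was not blind. The rule itself used no value but detection. A gene counted where a probe carrying its symbol had a detection p-value under 0.01 on at least 1 array. All 52 met this rule, out of 12842 genes detected on at least 1 array, and 51 of them were detected on all 5 arrays. The members held 81 probes, of which 80 were detected, and each gene was read from its brightest probe unless a second probe is named. By role they are 12 cyclins, kinases and other regulators of mitotic entry, 9 genes of the spindle checkpoint and anaphase, 11 of the kinetochore and centromere, 8 motors and spindle proteins, 6 of condensin and chromosome structure, and 6 of cytokinesis.

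The study measured RNA on Illumina BeadChip arrays in Miapaca and BXPC3 cells, established human lines from pancreatic ductal adenocarcinoma, after siRNA against LYNX1. LYNX1 encodes a Ly6 family protein, tethered to the cell membrane, that modulates nicotinic acetylcholine receptors. Each of the 5 groups held 1 array, so no single comparison has a replicate check or a p-value. A second siRNA against the same gene was used in Miapaca only. The Miapaca groups received a control siRNA, an siRNA against the LYNX1 open reading frame (ORF siRNA) or an siRNA against its 3′ untranslated region (3UTR siRNA), at 60 pM as labelled, with 4 µl of lipofectamine RNAiMAX. The unit of this dose could not be checked, so the size of the dose difference between the lines is uncertain. The BXPC3 groups received the control siRNA or the ORF siRNA at 200 nM with 14 µl of Xtreme gene9. In all groups siRNA was given 24 h after seeding and RNA was extracted 72 h after that. Line, dose, reagent and culture medium differ together and cannot be told apart.

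Entry into mitosis is driven by CDK1 bound to cyclins, with the Aurora and polo-like kinases. The kinetochore, built on centromeric chromatin, attaches chromosomes to spindle microtubules, and the spindle checkpoint holds back the anaphase-promoting complex until all are attached. Transcripts of many of these genes are made mainly late in the cell cycle, so their RNA is abundant in dividing cells, cancer cell lines included. In RNA from whole cultures, fewer cells in mitosis and less of such RNA in each cell cannot be told apart.

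Promoters of this gene class are known for a cell-cycle element with the letters TTTGAA, called the CHR, which often lies just upstream of the start with CCAAT letters further out. RefSeq promoter windows (GRCh38.p14, 250 bases before to 50 after an annotated start) were given for 45 of the 52 members, with 57 windows in all. Both strands were searched. TTTGAA was found in 36 of the 57 windows, 63.16%, against 15.16% of all 35114 windows and 11.02% of the 14652 windows of genes detected on at least 1 array. CCAAT was found in 40 of the 57 windows, 70.18%, against 34.62% of all windows. Both lay in 27 windows, 47.37%, against 5.904% of all windows. The stretches of 30 bases below show the element in genes that the results turn on (lower with both siRNAs in Miapaca, or, for PLK1, highest with the 3UTR siRNA), on the strand of the gene, with capitals marking each TTTGAA match or its reverse complement TTCAAA, and in CCNB1, whose window held CCAAT but no TTTGAA, each CCAAT.
HMMR, chr5:163460592-163460621, plus strand: aatgtggggagaTTTGAATTTGAAaccggt
ANLN, chr7:36389824-36389853, plus strand: tcggcgctgaaaTTCAAATTTGAAcggctg
KIF11, chr10:92593090-92593119, plus strand: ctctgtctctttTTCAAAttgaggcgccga
BUB1B, chr15:40161034-40161063, plus strand: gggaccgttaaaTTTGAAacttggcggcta
SMC4, chr3:160399563-160399592, plus strand: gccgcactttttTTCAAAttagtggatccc
PLK1, chr16:23678848-23678877, plus strand: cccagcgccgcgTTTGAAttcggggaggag
CCNB1, chr5:69167083-69167112, plus strand: gccacgaacaggCCAATaaggagggagcag

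A match is a description of letters and shows no site or cause. Only stretches wholly before the start could be shown, while the counts include matches after it. MAD2L1 and NUF2, the lowest members with the ORF and the 3UTR siRNA in Miapaca, matched TTTGAA only after the start, at bases 25 and 17. BUB1 held no TTTGAA match. HMMR and ANLN each held a pair of adjoining matches, the first 28 and 26 bases before the annotated start, and the KIF11 match began 28 bases before it. The 33 members with TTTGAA in a window had a median log2 difference of -0.83 with the ORF siRNA in Miapaca and the 12 without it -0.78. With the 3UTR siRNA these medians were -0.79 and -0.46, and with the ORF siRNA in BXPC3 -0.27 and -0.25. Members with and without TTTGAA spanned wide and overlapping ranges, from -1.90 to 0.33 and from -1.23 to 0.53 with the ORF siRNA in Miapaca. For CCAAT the Miapaca medians went the other way. The 35 members with CCAAT had medians of -0.78, -0.58 and -0.26 in the same order of comparisons, and the 10 without it -1.06, -0.93 and -0.25.

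Levels below are log2 of the background-corrected and quantile-normalized bead intensity, a scale on which a difference of 1 is 2-fold. The Miapaca control array was the highest of the 5 for 42 of the 52 members, against 20.7% of all genes detected. It was highest for 50 members and 44.3% of all genes with each array scaled to a common median, and for 35 members and 14.2% of all genes with that median taken over probes detected on every array. In the quantile-normalized values the BXPC3 ORF siRNA array was the lowest for 27 members and the Miapaca ORF siRNA array for 14, against 21% and 18.1% of all genes. No member was lowest on the Miapaca control array. The 10 members highest elsewhere were CDK1, BUB3 and SMC2 on the BXPC3 control array, CDC25B, PTTG1 and INCENP with the ORF siRNA in Miapaca, CDC25C, PLK1 and CDC20 with the 3UTR siRNA, and KIF23 with the ORF siRNA in BXPC3. The members' median level was 10.18 in control Miapaca cells, 9.34 with the ORF and 9.46 with the 3UTR siRNA, and in BXPC3 it was 9.11 with the control and 8.69 with the ORF siRNA. Of the members, NUF2 had the widest range over the 5 arrays, 2.82 on the log2 scale, and PTTG1 the narrowest, 0.30.

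Within Miapaca, the array with the highest member levels was also the brightest, while across lines brightness and member levels did not follow the same order. The mean bead intensity before normalization was, for Miapaca, 463 on the control array, 355 with the ORF and 343 with the 3UTR siRNA, a control 1.30 and 1.35 times as bright. In BXPC3 it was 366 and 361, a ratio of 1.02. Quantile normalization gives all arrays the same distribution, and the part of brightness in the members' differences was not tested. Neither of the 2 LYNX1 probes was detected on any array, the smallest detection p being 0.0228, so knockdown of the target could not be checked. Of 5 ductal epithelial markers, KRT8, KRT18 and KRT19 were detected on all arrays, and EPCAM and KRT7 on the BXPC3 arrays but on no Miapaca array. Of 6 fibroblast markers 2 were detected, COL1A2 on all arrays but the BXPC3 ORF siRNA array and COL3A1 with the 3UTR siRNA only. Of 4 endothelial markers 1 was detected, CDH5, on the Miapaca control, Miapaca 3UTR siRNA and BXPC3 ORF siRNA arrays. Of 5 blood cell markers 2 were detected, CD14 and CD68, both on all 5 arrays. The summed intensity of the ductal markers was 4420 in control Miapaca cells, 9316 with the ORF and 5703 with the 3UTR siRNA, and 13867 and 15042 in control and ORF siRNA BXPC3 cells. The summed intensity of the fibroblast markers was 1494, 2634 and 2278 on the Miapaca arrays in the same order, and 158 and 122 in BXPC3. COL1A2 alone made up most of the Miapaca sums, at log2 levels of 10.43, 11.31 and 11.07. COL1A1, PDGFRB, DCN, LUM, PECAM1, VWF, KDR, PTPRC, CD3E and HBB were detected on no array. The part of other cells in the results was not tested.

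With the ORF siRNA in Miapaca, 47 of the 52 members were below the control array, against 48.6% of the 10899 genes measured. At least 2-fold lower were 18 members, where 5.51% of all genes were, and none was 2-fold higher, where 5.07% of all genes were. The members' median log2 difference was -0.79, beside 0.02 for all genes. With the 3UTR siRNA 49 members were below the same control array (49.9% of all genes), 10 were at least 2-fold lower (4.64% of all genes) and none was 2-fold higher (4.22%). The median was -0.57, beside 0.000255 for all genes. These comparisons share the Miapaca control array, and their values are set side by side for that reason, with no measure of their likeness. With the ORF siRNA in BXPC3, 43 members were below the control (50.6% of all genes), none was 2-fold lower (0.462% of all genes) or higher (0.631%), and the median was -0.28, beside -0.01 for all genes. The plot of members by role shows each of these differences.

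The scaling of the arrays moved these counts. With each array scaled to a common median in place of quantile normalization, the median of all genes itself shifted to -0.40 with the ORF and -0.46 with the 3UTR siRNA in Miapaca. All genes past 2-fold then split into 1822 lower and 188 higher with the ORF siRNA, in place of 600 and 553, and into 1980 and 85 with the 3UTR siRNA, in place of 504 and 459. At least 2-fold lower were then 38 and 32 members, and the members' medians were -1.32 and -1.13. With the common median taken over probes detected on every array, called scaling to detected probes below, all genes shifted to 0.15 in both comparisons, and 45 and 44 members were below control. The sign then turned for CKS1B and CKS2 with the ORF siRNA and for CCNB2, CKS1B, BUB3, PTTG1 and SPC24 with the 3UTR siRNA. Relative to the median of all genes, the members' median lay between -0.92 and -0.67 with the ORF siRNA and between -0.67 and -0.44 with the 3UTR siRNA over the settings run, and in BXPC3 between -0.28 and -0.21.

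**Figure D1:**
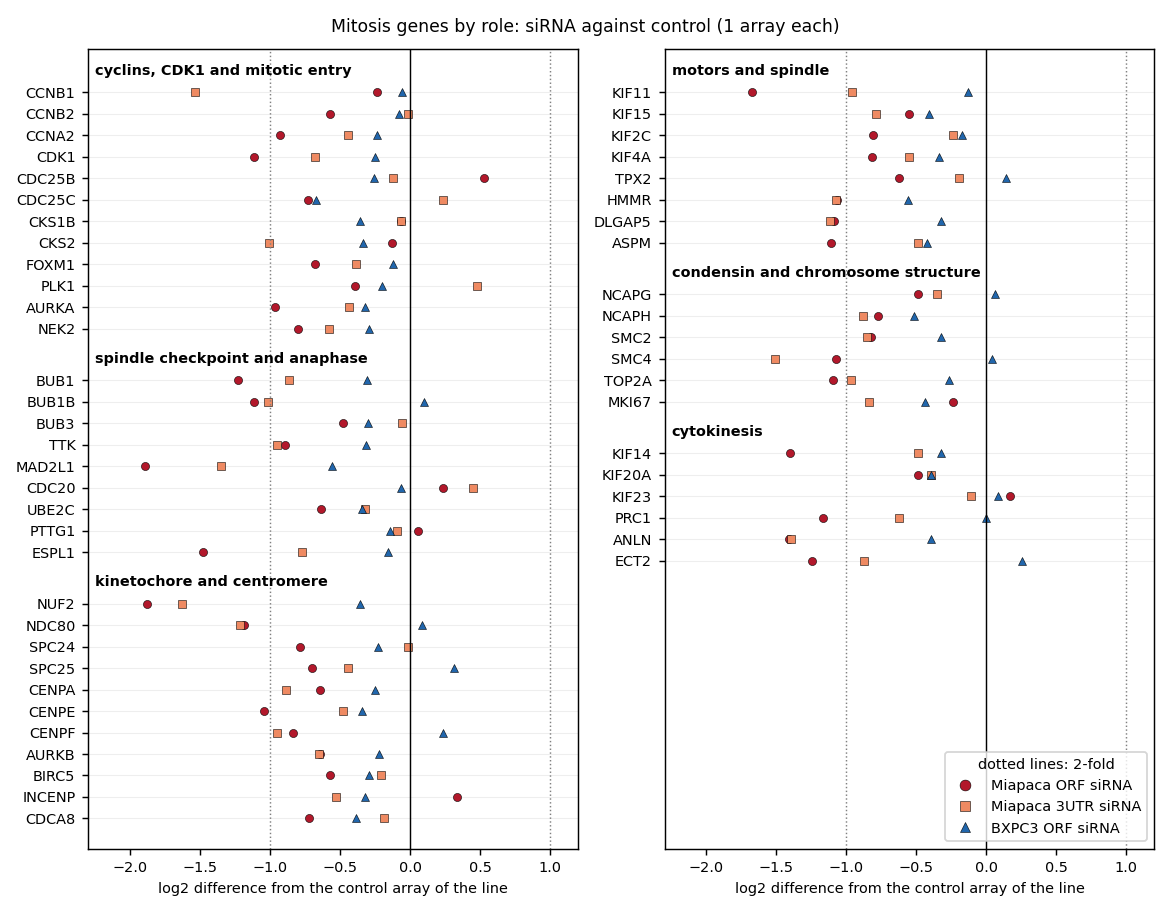
Log2 difference from the control array of the same line (horizontal axis) for each of the 52 genes by role, with the ORF siRNA in Miapaca (circles), the 3UTR siRNA in Miapaca (squares) and, in BXPC3, the ORF siRNA (triangles), 1 array each. Circles lie left of 0 for 47 genes, squares for 49 and triangles for 43, and 18 circles, 10 squares and no triangle lie at or beyond 2-fold lower. NCAPH is drawn at its bound in all 3 comparisons.

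The distribution plot sets the members beside all genes measured. In Miapaca the middle 90% of all genes lay from -1.03 to 1.003 with the ORF siRNA and from -0.98 to 0.95 with the 3UTR siRNA. In BXPC3 it lay from -0.58 to 0.59. The members' differences ran from -1.90 (MAD2L1) to 0.53 (CDC25B) with the ORF siRNA in Miapaca, from -1.63 (NUF2) to 0.48 (PLK1) with the 3UTR siRNA, and from -0.67 (CDC25C) to 0.32 (SPC25) with the ORF siRNA in BXPC3.

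**Figure D2:**
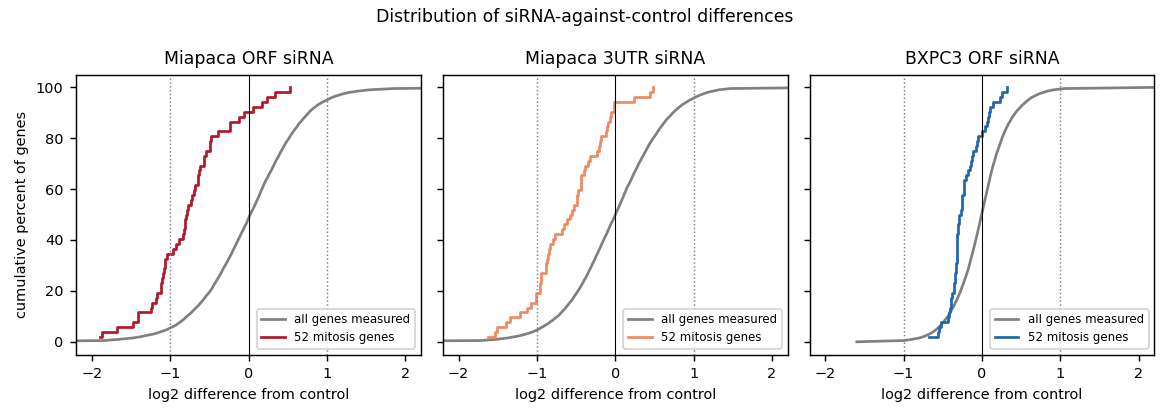
Cumulative percent of genes (vertical axis) against the log2 difference from control (horizontal axis) for the 52 mitosis genes (coloured steps) and all genes measured (grey), for each siRNA array against its control. But for the lowest differences, the members' curve lies left of the grey curve in each panel, with medians of -0.79 against 0.02, -0.57 against 0.000255 and -0.28 against -0.01.

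The regulators of mitotic entry differed in size and, for a few, in direction between the siRNAs. Of the 12, 11 were below control with the ORF siRNA in Miapaca (median -0.63), 10 with the 3UTR siRNA (median -0.41) and 12 in BXPC3 (median -0.25). CDK1, the kinase at the centre of mitotic entry, read 10.28, 9.16 and 9.60 in Miapaca cells given the control, ORF and 3UTR siRNAs, and 10.50 and 10.25 in BXPC3 cells given the control and ORF siRNAs. It was 2.17-fold lower with the ORF siRNA, the only gene of this role past 2-fold there, and 1.60-fold lower with the 3UTR siRNA, while the BXPC3 levels lay near that of the Miapaca control. Its second detected probe was also past 2-fold with the ORF siRNA.

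CCNB1, a B-type cyclin that activates CDK1, read 9.66 on the Miapaca control array, 9.42 and 8.12 on the ORF and 3UTR siRNA arrays, and in BXPC3 9.34 with the control and 9.28 with the ORF siRNA. It was 2.91-fold lower with the 3UTR siRNA and 1.18-fold lower with the ORF siRNA, so 1 array of the 5 stood below the others. CCNB2, the related B-type cyclin, lay between 10.52 and 11.10 on all arrays and was lowest with the ORF siRNA. CCNA2, a cyclin of S phase and early mitosis, was 1.91-fold and 1.36-fold lower with the ORF and 3UTR siRNAs.

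CKS2, a small subunit of cyclin-dependent kinase complexes, read 12.89 in control Miapaca cells, 12.76 after ORF and 11.88 after 3UTR siRNA, and 11.95 and 11.61 in BXPC3 cells after control and ORF siRNA. It was 2.01-fold lower with the 3UTR siRNA and 1.09-fold lower with the ORF siRNA, and its second probe differed by -0.48 and 0.21. CKS1B, its close relative, was 1.05-fold and 1.05-fold below control in Miapaca and 1.28-fold in BXPC3. CDC25C, a phosphatase that activates CDK1, read 8.03, 7.30 and 8.26 in Miapaca cells given the control, ORF and 3UTR siRNAs, and 6.66 and 5.99 in BXPC3 cells given the control and ORF siRNAs. All 3 of its probes were below control with the ORF siRNA in Miapaca and above control with the 3UTR siRNA, the latter a sign that turned for the brightest probe under common-median scaling. CDC25B, a related phosphatase, read 11.20 on the Miapaca control array, 11.73 and 11.08 on the ORF and 3UTR siRNA arrays, and in BXPC3 10.50 with the control and 10.24 with the ORF siRNA. It was the highest member of the ORF siRNA comparison in Miapaca, at 0.53, and below control in the other 2.

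PLK1, the polo-like kinase of mitotic entry and exit, read 7.12 in control Miapaca cells, 6.73 after ORF and 7.60 after 3UTR siRNA, and 6.74 and 6.54 in BXPC3 cells after control and ORF siRNA. It was the highest member with the 3UTR siRNA, at 0.48, and below control with the ORF siRNA in both lines, and with the 3UTR siRNA too it lay below control under common-median scaling. AURKA, the Aurora kinase of centrosomes and spindle poles, was 1.95-fold and 1.35-fold lower with the ORF and 3UTR siRNAs in Miapaca. NEK2, a centrosomal kinase, was 1.74-fold and 1.498-fold lower in the same order, and FOXM1, a transcription factor of late cell-cycle genes, 1.60-fold and 1.31-fold. In BXPC3 these 3 genes were 1.25-fold, 1.23-fold and 1.09-fold lower.

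The spindle checkpoint genes that sense unattached kinetochores (MAD2L1, BUB1, BUB1B, BUB3 and TTK) were all below control with both siRNAs in Miapaca, and the genes of the anaphase machinery were mixed. The exception was the scaling to detected probes, under which BUB3 lay above control with the 3UTR siRNA. Of the 9 genes of this role, 7 were below control with the ORF siRNA (median -0.89), 8 with the 3UTR siRNA (median -0.77) and 8 in BXPC3 (median -0.30). MAD2L1, which binds and inhibits the anaphase activator CDC20, read 11.01, 9.12 and 9.67 in Miapaca cells given the control, ORF and 3UTR siRNAs, and 9.40 and 8.85 in BXPC3 cells given the control and ORF siRNAs. It was 3.72-fold lower with the ORF and 2.55-fold lower with the 3UTR siRNA in Miapaca, and 1.47-fold lower in BXPC3. Its second probe differed by -1.91, -0.52 and -0.66 in the same order, so both probes were past 2-fold with the ORF siRNA and 1 of them with the 3UTR siRNA.

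BUB1, a checkpoint kinase of kinetochores, read 10.55 on the Miapaca control array, 9.32 and 9.69 on the ORF and 3UTR siRNA arrays, and in BXPC3 8.85 with the control and 8.54 with the ORF siRNA. It was 2.34-fold and 1.82-fold lower in Miapaca, and the BXPC3 levels were below all 3 Miapaca levels. BUB1B, which encodes the checkpoint protein BubR1, read 7.86 in control Miapaca cells, 6.75 after ORF and 6.85 after 3UTR siRNA, and 6.87 and 6.97 in BXPC3 cells after control and ORF siRNA. The Miapaca control stood apart from the other 4 arrays, 2.17-fold and 2.02-fold above the siRNA arrays of its line, and in BXPC3 the siRNA array was 0.10 above control on the log2 scale, a sign that turned under common-median scaling. Neither Miapaca difference of BUB1B was past 2-fold without background correction, with an offset of 50 or in the series matrix. TTK, the kinase that starts checkpoint signalling, was 1.86-fold and 1.93-fold lower in Miapaca and 1.25-fold lower in BXPC3.

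BUB3, the partner of BUB1 and BubR1, was read by 4 detected probes. The brightest lay between 11.63 and 12.16 on all arrays and differed by -0.48 with the ORF and -0.06 with the 3UTR siRNA. Of the others, the 2 detected on all arrays differed by -1.65 and -1.07 with the ORF siRNA and by -0.58 and -1.22 with the 3UTR siRNA, so the size for BUB3 depended on the probe.

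ESPL1, which encodes separase, the protease that cuts cohesin at anaphase, read 7.25, 5.77 and 6.48 in Miapaca cells given the control, ORF and 3UTR siRNAs, and 6.36 and 6.21 in BXPC3 cells given the control and ORF siRNAs. It was 2.79-fold lower with the ORF and 1.71-fold lower with the 3UTR siRNA, with the ORF siRNA array lowest of the 5. CDC20, the activator of the anaphase-promoting complex, read 12.41 on the Miapaca control array, 12.64 and 12.86 on the ORF and 3UTR siRNA arrays, and in BXPC3 12.47 with the control and 12.41 with the ORF siRNA. It was above control with both siRNAs in Miapaca, the direction opposite to its inhibitor MAD2L1, except that with each array scaled to a common median it lay below control with the ORF siRNA. PTTG1, which encodes securin, the inhibitor of separase, lay between 11.82 and 12.13 on all arrays, and its second probe differed by -0.44 with the ORF siRNA. UBE2C, the ubiquitin-conjugating enzyme that works with the anaphase-promoting complex, was 1.56-fold and 1.25-fold lower in Miapaca.

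The kinetochore and centromere genes held NUF2, the member with the widest range over the arrays, and the other subunits of its complex. Of the 11, 10 were below control with the ORF siRNA in Miapaca (median -0.72), 11 with the 3UTR siRNA (median -0.53) and 8 in BXPC3 (median -0.25). The Ndc80 complex, which binds microtubules at the outer kinetochore, is made of NDC80, NUF2, SPC24 and SPC25. NUF2 read 9.11 in control Miapaca cells, 7.23 after ORF and 7.47 after 3UTR siRNA, and 6.64 and 6.28 in BXPC3 cells after control and ORF siRNA. It was 3.67-fold and 3.10-fold lower with the ORF and 3UTR siRNAs in Miapaca, and the BXPC3 levels were below those of all Miapaca arrays. A second NUF2 probe, detected on all arrays, differed by -0.60 with the ORF and 0.50 with the 3UTR siRNA, so the probes disagreed in sign for the latter.

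NDC80 read 9.55, 8.36 and 8.33 in Miapaca cells given the control, ORF and 3UTR siRNAs, and 7.93 and 8.02 in BXPC3 cells given the control and ORF siRNAs. It was 2.27-fold lower with the ORF and 2.32-fold lower with the 3UTR siRNA, near-equal levels on the siRNA arrays. In BXPC3 the siRNA array was 0.09 above control on the log2 scale, a sign that turned under common-median scaling. SPC24 differed by -0.79 with the ORF and -0.02 with the 3UTR siRNA. SPC25 read 8.73 on the Miapaca control array, 8.02 and 8.28 on the ORF and 3UTR siRNA arrays, and in BXPC3 7.31 with the control and 7.63 with the ORF siRNA. It was below control in both Miapaca comparisons, at -0.70 and -0.44, and the highest member in BXPC3, at 0.32, where its second probe was below control. The 4 subunits of the complex all lay below control in both Miapaca comparisons, 2 of them, NUF2 and NDC80, by over 2-fold in each, except that SPC24 with the 3UTR siRNA lay above control under scaling to detected probes.

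CENPE, a kinetochore motor that moves chromosomes to the spindle equator, read 9.04 in control Miapaca cells, 8.002 after ORF and 8.56 after 3UTR siRNA, and 8.36 and 8.02 in BXPC3 cells after control and ORF siRNA. It was 2.06-fold lower with the ORF and 1.40-fold lower with the 3UTR siRNA, and its second probe differed by -0.52 and -0.26. CENPF, a large protein of the outer kinetochore, was 1.78-fold and 1.93-fold lower in Miapaca and 0.24 above control on the log2 scale in BXPC3. CENPA, the histone variant that marks centromeres, read 10.12, 9.48 and 9.23 in Miapaca cells given the control, ORF and 3UTR siRNAs, and 8.92 and 8.68 in BXPC3 cells given the control and ORF siRNAs. It was 1.56-fold and 1.85-fold lower in Miapaca, and both BXPC3 levels were under the Miapaca levels.

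AURKB, BIRC5, INCENP and CDCA8 form the chromosomal passenger complex, which corrects faulty attachments. AURKB, its kinase, was 1.56-fold and 1.57-fold lower in Miapaca. BIRC5, which encodes survivin, was 1.49-fold and 1.16-fold lower, and CDCA8, which encodes borealin, 1.65-fold and 1.14-fold lower. INCENP, the scaffold, differed by 0.33 with the ORF and -0.53 with the 3UTR siRNA, so the complex was mixed in direction with the ORF siRNA, though INCENP too lay below control there under common-median scaling. All 4 were below control in BXPC3, by 1.17-fold to 1.30-fold.

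All 8 motors and spindle proteins were below control with the ORF siRNA (median -0.94) and with the 3UTR siRNA (median -0.67) in Miapaca, and 7 were in BXPC3 (median -0.33). KIF11, the motor Eg5 that pushes spindle poles apart, read 9.49 on the Miapaca control array, 7.81 and 8.53 on the ORF and 3UTR siRNA arrays, and in BXPC3 8.13 with the control and 7.999 with the ORF siRNA. It was 3.196-fold lower with the ORF and 1.95-fold lower with the 3UTR siRNA. Its second probe differed by -1.85 and -1.54, so both probes were past 2-fold with the ORF siRNA and the second alone with the 3UTR siRNA.

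HMMR, a spindle and hyaluronan-binding protein, read 10.39 in control Miapaca cells, 9.32 after ORF and 9.31 after 3UTR siRNA, and 9.24 and 8.68 in BXPC3 cells after control and ORF siRNA. It was 2.09-fold and 2.11-fold lower with the ORF and 3UTR siRNAs and 1.47-fold lower in BXPC3, and its second probe was lower by more in each comparison. DLGAP5, a microtubule-binding protein of the spindle, read 10.45, 9.37 and 9.33 in Miapaca cells given the control, ORF and 3UTR siRNAs, and 9.49 and 9.16 in BXPC3 cells given the control and ORF siRNAs. It was 2.12-fold and 2.17-fold lower in Miapaca, also past 2-fold with its second probe in both comparisons. ASPM, a spindle pole protein, read 10.52 on the Miapaca control array, 9.40 and 10.02 on the ORF and 3UTR siRNA arrays, and in BXPC3 9.71 with the control and 9.28 with the ORF siRNA. It was 2.16-fold lower with the ORF and 1.41-fold lower with the 3UTR siRNA, and the ORF siRNA arrays of both lines were the lowest.

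The other motors were under 2-fold in both comparisons. KIF4A, which organises the anaphase midzone, was 1.76-fold and 1.47-fold lower with the ORF and 3UTR siRNAs, and KIF2C, a microtubule-depolymerising kinesin, 1.75-fold and 1.18-fold. KIF15, a motor that acts beside Eg5, was 1.46-fold and 1.73-fold lower. TPX2, an activator of AURKA on the spindle, was 1.54-fold and 1.15-fold lower in Miapaca, and in BXPC3 it was the role's 1 gene above control, by 0.14 on the log2 scale.

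All 6 genes of condensin and chromosome structure were below control in both Miapaca comparisons, with medians of -0.80 for the ORF siRNA and -0.87 for the 3UTR siRNA, and 4 were in BXPC3 (median -0.30). SMC4, a core ATPase subunit of condensin, read 11.23 in control Miapaca cells, 10.16 after ORF and 9.72 after 3UTR siRNA, and 10.65 and 10.69 in BXPC3 cells after control and ORF siRNA. It was 2.10-fold and 2.85-fold lower in Miapaca by its brightest probe, while a dimmer probe detected on all arrays differed by 0.04 with the ORF and -0.73 with the 3UTR siRNA. In BXPC3 it lay 0.04 above control, a sign that turned under common-median scaling. TOP2A, the topoisomerase that untangles sister chromatids, read 11.98, 10.89 and 11.02 in Miapaca cells given the control, ORF and 3UTR siRNAs, and 10.70 and 10.43 in BXPC3 cells given the control and ORF siRNAs. It was 2.13-fold and 1.95-fold lower, with the control array the highest of the 5.

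SMC2, the ATPase partner of SMC4, was 1.77-fold and 1.81-fold lower by its brightest probe. Its other probes differed by -2.13 and 0.46 with the ORF siRNA, so they disagreed in sign. NCAPG, a regulatory condensin subunit, was 1.40-fold and 1.27-fold lower. NCAPH, the subunit that bridges the SMC pair, read 5.46 on the Miapaca control array, 4.68 and 4.48 on the ORF and 3UTR siRNA arrays, and in BXPC3 5.01 with the control and 4.45 with the ORF siRNA. It was detected on the control arrays of both lines and on no siRNA array, so it was at least 1.71-fold lower in Miapaca with the ORF siRNA, at least 1.85-fold lower with the 3UTR siRNA and at least 1.43-fold lower in BXPC3. MKI67, the proliferation marker that coats mitotic chromosomes, read 6.55 in control Miapaca cells, 6.31 after ORF and 5.71 after 3UTR siRNA, and 5.18 and 4.74 in BXPC3 cells after control and ORF siRNA. It was 1.18-fold lower with the ORF siRNA, 1.79-fold lower with the 3UTR siRNA and 1.36-fold lower in BXPC3.

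Of the 6 cytokinesis genes, 5 were below control with the ORF siRNA in Miapaca (median -1.21), 6 with the 3UTR siRNA (median -0.56) and 4 in BXPC3 (median -0.16). ANLN, the anillin scaffold of the contractile ring, read 11.02, 9.61 and 9.62 in Miapaca cells given the control, ORF and 3UTR siRNAs, and 8.76 and 8.36 in BXPC3 cells given the control and ORF siRNAs. It was 2.65-fold and 2.64-fold lower in Miapaca, equal on the siRNA arrays to within 0.01 on the log2 scale, and 1.32-fold lower in BXPC3. ECT2, which activates the small GTPase RhoA at the division site, read 11.11 on the Miapaca control array, 9.86 and 10.23 on the ORF and 3UTR siRNA arrays, and in BXPC3 10.03 with the control and 10.28 with the ORF siRNA. It was 2.38-fold and 1.84-fold lower in Miapaca, whereas in BXPC3 the siRNA array was 0.25 above control on the log2 scale.

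KIF14, a kinesin of the midbody, read 8.74 in control Miapaca cells, 7.34 after ORF and 8.25 after 3UTR siRNA, and 8.68 and 8.36 in BXPC3 cells after control and ORF siRNA. It was 2.65-fold lower in Miapaca with the ORF siRNA and 1.41-fold lower with the 3UTR siRNA, with 1 array below the other 4. PRC1, which bundles midzone microtubules, read 11.38, 10.21 and 10.75 in Miapaca cells given the control, ORF and 3UTR siRNAs, and 11.00 and 10.99 in BXPC3 cells given the control and ORF siRNAs. It was 2.25-fold and 1.54-fold lower in Miapaca and level with control in BXPC3. KIF20A, a midzone kinesin, was 1.40-fold and 1.32-fold lower, and KIF23, a subunit of the centralspindlin complex, lay between 8.95 and 9.41 on all arrays.

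**Figure D3:**
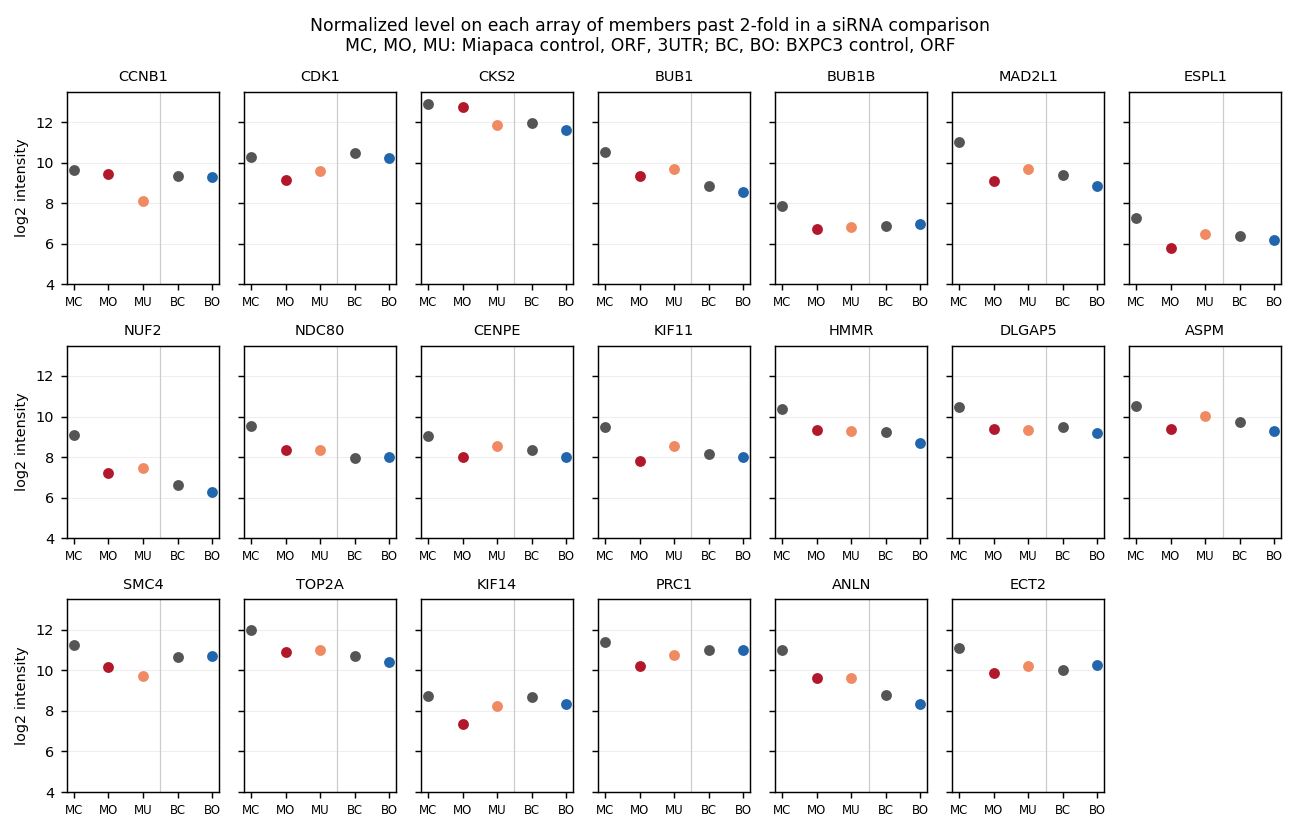
Normalized log2 intensity (vertical axis) on each of the 5 arrays for the 20 members at least 2-fold lower in a siRNA comparison, 1 point per array and no error bars (1 array a group). The Miapaca control (MC) is the highest point for all of them but CDK1, and BXPC3 levels (BC, BO) differ by under 2-fold from each other in every panel.

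A second detected probe existed for 22 members. The probes of a member differed in sign for 4 members with the ORF siRNA in Miapaca (CKS2, PTTG1, SMC2 and SMC4), for 2 with the 3UTR siRNA (NUF2 and SMC2) and for 9 with the ORF siRNA in BXPC3. Of the 18 members past 2-fold with the ORF siRNA in Miapaca, 8 had more than 1 detected probe, and for 5 of these every probe was past 2-fold: CDK1, MAD2L1, KIF11, HMMR and DLGAP5. With the 3UTR siRNA it was 2 of 6, HMMR and DLGAP5.

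**Figure D4:**
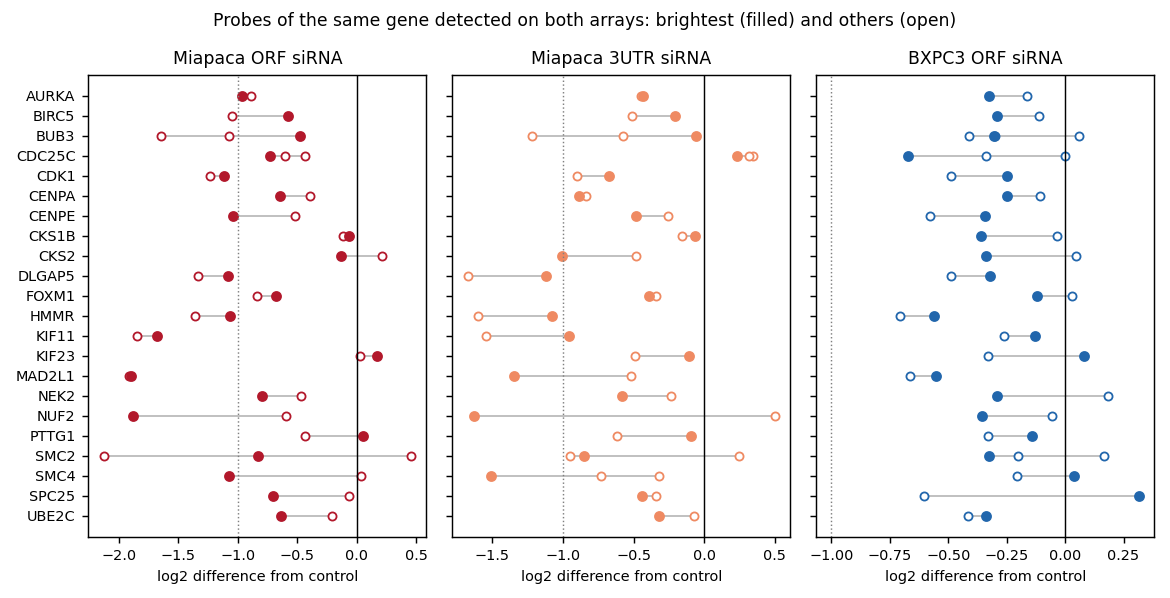
Log2 difference from control (horizontal axis) of every probe detected on both arrays, for the 22 members with more than 1, the brightest filled and the others open, in 3 panels for both siRNAs in Miapaca and, in BXPC3, the ORF siRNA. Probes of HMMR, DLGAP5 and CDK1 stay on the same side of 0 in every panel, while those of SMC2 lie on both sides in each.

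The direct comparison of the 2 siRNAs in Miapaca uses no control array. Of the 51 members measured on either array, 33 were lower with the ORF siRNA than with the 3UTR siRNA, against 48.7% of all genes, with a median of -0.25 beside 0.02 for all genes. CCNB1 was 2.46-fold higher with the ORF siRNA, the only member past 2-fold higher, where 5.19% of all genes were, and none was 2-fold lower, where 4.92% were. CKS2 and INCENP followed at 0.88 and 0.86. At the other end were CDC25C at -0.96, KIF14 at -0.91 and PLK1 at -0.87. NDC80, HMMR, DLGAP5 and ANLN differed by 0.03, 0.01, 0.04 and -0.01, and these differences have no error estimate.

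The ORF siRNA comparisons in Miapaca and in BXPC3 share no array. Below control in both lines were 39 of the 52 members, where 28.4% of the 9567 genes measured in both lines were. Above control in both was 1 (KIF23, beside 29.3% of these genes), and 12 differed in sign (42.2% of these genes). Under common-median scaling KIF23 lay below control in both lines. Its second probe differed by 0.03 in Miapaca and -0.33 in BXPC3. Pearson's r between the members' differences in the lines was 0.08 over 52 genes, and 0.26 over all 9567 genes. It is a description across genes, which share the arrays and their normalization. The difference from control was larger in Miapaca for 48 members, and for 6826 of the 9567 genes. In BXPC3 the lowest members were CDC25C at -0.67, HMMR at -0.56 and MAD2L1 at -0.55. The other 2 CDC25C probes differed there by -0.34 and 0.0009.

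A model over all 5 arrays compared the 3 LYNX1 siRNA arrays with the 2 control arrays, with cell line as a covariate and 2 residual degrees of freedom. It took both siRNAs as 1 treatment. No arrays were replicates, so its spread holds any difference between the siRNAs and between the lines in their response. The SEs and p-values of both its terms, siRNA and line, are set against that spread and not against replicate error. By limma with Benjamini-Hochberg adjustment no member passed an adjusted p of 0.05, and 0.0% of the 12842 genes did. At an unadjusted p under 0.05 there were 10 members, all lower (BUB1, TTK, MAD2L1, NUF2, HMMR, DLGAP5, NCAPH, SMC2, TOP2A and ANLN), where 4.26% of all genes were in either direction. This count was 0 without the Miapaca control array, 10 to 16 without any other single array, 34 under common-median scaling and 7 under scaling to detected probes. MAD2L1 had the smallest p of the members, with a log2 difference of -1.17 (SE 0.335, unadjusted p = 0.00957, limma adjusted p = 0.894). HMMR followed at -0.85 (SE 0.255), NUF2 at -1.16 (SE 0.354), ANLN at -0.97 (SE 0.300) and NCAPH at -0.75 (SE 0.250), the last from a probe under detection on all siRNA arrays, each with a limma adjusted p of 0.894. The members' median was -0.51, beside 0.01 for all genes. Without the Miapaca 3UTR siRNA array MAD2L1 alone of the members passed (limma adjusted p = 0.0376, against 0.357 to 1 under the other alternatives), among 95 genes in all, and without the Miapaca control array the members' median was -0.28.

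The members also differed between the lines under control siRNA. In BXPC3 47 of the 52 were lower than in Miapaca (52.1% of all genes), 17 of them at least 2-fold (14.3% of all genes), and none was 2-fold higher (14.7% of all genes), with a median of -0.69 beside -0.05. NUF2 was 5.52-fold lower, ANLN 4.79-fold and KIF20A 4.09-fold. The second NUF2 probe differed by -0.76. CDK1, KIF23 and SMC2 were above the Miapaca control by 0.22, 0.27 and 0.23 on the log2 scale, signs that turned under common-median scaling, and for CDK1 and KIF23 with the second probe as well. Of the 8 members past 2-fold with more than 1 detected probe, 4 were past it with every probe (CENPA, HMMR, KIF11 and NEK2). Under common-median scaling 33 members were at least 2-fold lower and the median was -1.17, with all genes at -0.38 and split into 2915 lower and 1317 higher past 2-fold, in place of 1695 and 1741. This comparison rests on the same Miapaca control array as the Miapaca siRNA comparisons.

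The line term of the same model over 5 arrays called 12 members lower in BXPC3 at a limma adjusted p under 0.05, where 13.0% of all genes were, and none higher, where 13.9% were. KIF20A read 10.33 on the Miapaca control array, 9.84 and 9.93 on the ORF and 3UTR siRNA arrays, and in BXPC3 8.30 with the control and 7.90 with the ORF siRNA, so both BXPC3 arrays were below all 3 Miapaca arrays, and the fitted difference was -2.01 (SE 0.239, limma adjusted p = 0.000918). CDCA8 read 10.20 in control Miapaca cells, 9.47 after ORF and 10.01 after 3UTR siRNA, and 8.42 and 8.04 in BXPC3 cells after control and ORF siRNA, with a fitted difference of -1.73 (SE 0.271, limma adjusted p = 0.00331). For ANLN the fitted difference was -1.68 (SE 0.300, limma adjusted p = 0.00589), for CDC25C -1.61 (SE 0.342, limma adjusted p = 0.0120) and for MKI67 -1.31 (SE 0.279, limma adjusted p = 0.0121). The others were NUF2, BUB1, NEK2, CENPA, CCNA2, HMMR and CDC25B. MKI67, which read 5.18 and 4.74 in BXPC3, was not called without background correction or in the series matrix. HMMR and NUF2 were not called with the mean of detected probes, nor HMMR under scaling to detected probes. CDC25B, CCNA2 and CENPA were not called without the detection filter, nor CDC25B among genes detected on every array. The share of members called, 12 of 52, stands beside 3454 of 12842 for all genes in either direction. Leaving out the Miapaca control or the BXPC3 control gives the same line fit, so these leave-outs are the same check. No member was called when the Miapaca control, the BXPC3 control or the BXPC3 ORF siRNA array was left out, with 722, 722 and 430 genes called in all.

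**Figure D5:**
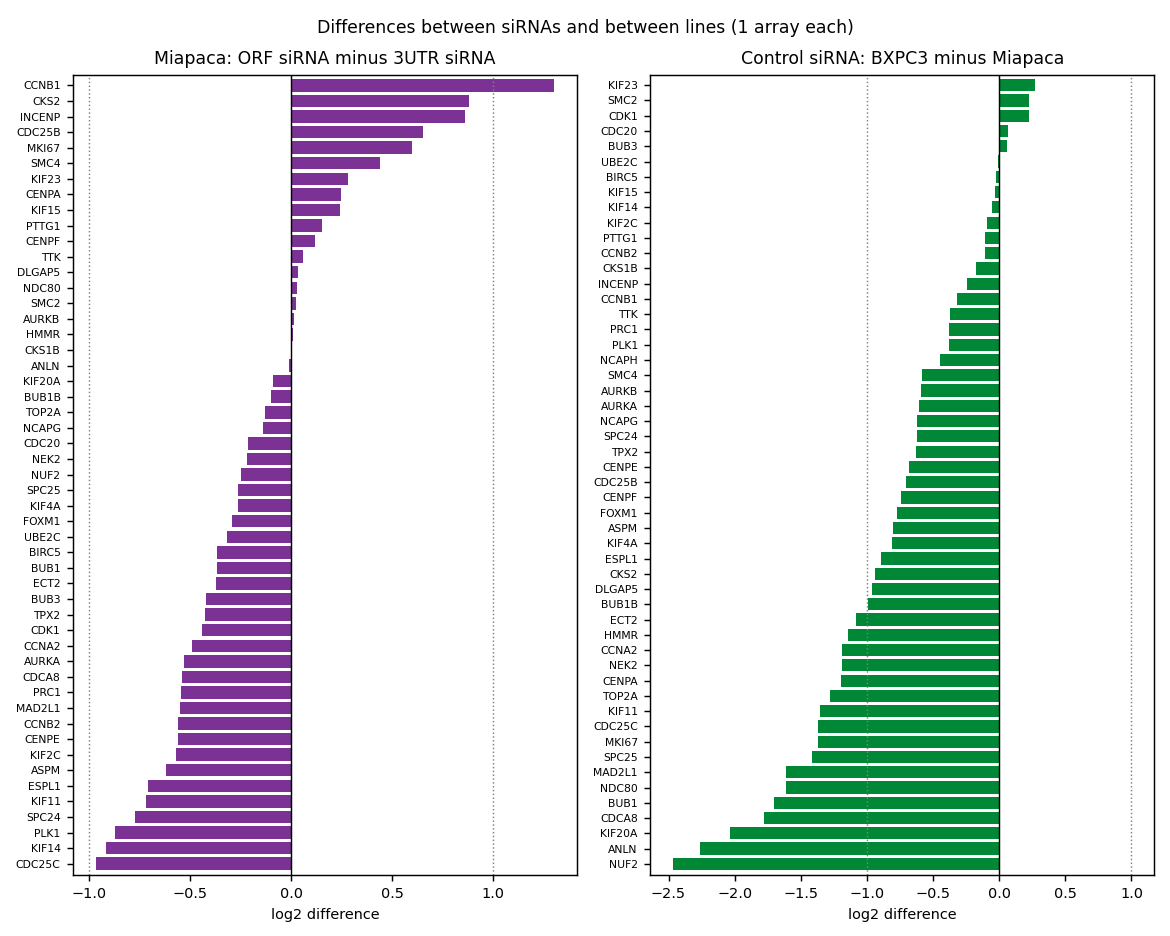
Log2 difference of the ORF siRNA from the 3UTR siRNA in Miapaca (left, 51 members) and of BXPC3 from Miapaca under control siRNA (right, 52 members), in order of size, with dotted lines at 2-fold and 1 array on each side. CCNB1 alone passes 2-fold on the left, and 17 members lie at or beyond 2-fold lower on the right, from NUF2 upward.

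A further 89 genes of mitosis outside the 52 members were listed, and 84 were detected on at least 1 array. With the ORF siRNA in Miapaca 68 of 83 measured were below control (48.6% of all genes), 21 at least 2-fold lower and none 2-fold higher (5.51% and 5.07% of all genes), with a median of -0.54. The lowest were PSRC1, a microtubule-bundling protein, at 4.53-fold lower, MASTL, the Greatwall kinase, at 3.72-fold, DEPDC1 at 3.59-fold and HMGB2, a chromatin protein, at 3.22-fold. With the 3UTR siRNA 71 of 84 were below control (49.9% of all genes) and 11 at least 2-fold lower (4.64%), with a median of -0.47. The lowest were WEE1, the kinase that inhibits CDK1, at 4.06-fold lower, BORA, a cofactor in the activation of PLK1, at 3.65-fold, HMGB2 at 3.47-fold and TACC3, a spindle protein, at 2.86-fold. In BXPC3 63 of 83 were below control (50.6% of all genes) with a median of -0.18, and E2F8, a repressor of E2F targets, was at least 2.13-fold lower, the 1 gene past 2-fold (0.462% of all genes were as low).

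Between the siRNAs in Miapaca, LIN54, the subunit of the MuvB complex that binds the CHR element, was 2.84-fold lower with the ORF siRNA than with the 3UTR siRNA. PSRC1 was 2.51-fold lower, while BORA was 2.24-fold and WEE1 2.11-fold higher. In all, 6 of the 84 genes were at least 2-fold lower and 2 at least 2-fold higher, where 4.92% and 5.19% of all genes were. Under control siRNA, 57 of the 84 were lower in BXPC3 than in Miapaca (52.1% of all genes), with a median of -0.31. At least 2-fold lower were 23 (14.3% of all genes), and 2 were 2-fold higher, MIS12 and RAD21 (14.7%). The line term of the model called 18 lower and 6 higher at a limma adjusted p under 0.05 (13.0% and 13.9% of all genes).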

How the data were processed

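RNA of the 5 groups was measured on 5 Illumina BeadChip arrays. The authors deposited mean bead intensities of 48107 probes, not normalized per the file headers, and a detection p-value per probe on each array, also deposited, by a method that the sources used here do not give. A series matrix of normalized intensities, deposited by the authors with no stated method, served as an alternative. A probe with a missing value (1) was dropped. Background was taken from the detection p-values, normexp with an offset of 16 and quantile normalization were applied (neqc, limma 3.58.1, R 4.3.3), and values were put on the log2 scale.

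The platform annotation gave 1 symbol for 30113 probes, several for 8 and none listed for 17985. Symbols were updated through the RefSeq gene table of GRCh38.p14 (29081 by accession, 1011 by Entrez identifier, 21 kept). The probe with the highest mean stood for its gene. A gene entered a comparison where detected (p under 0.01) on at least 1 of its arrays, and a gene undetected on the dim array got a bound. The model was limma's lmFit and eBayes over 12842 genes with Benjamini-Hochberg adjustment. It was run on simulated data whose spread was fixed beforehand and not estimated from these arrays. That run does not show what the model could call here. Arrays limit precision by their number, 1 a group, and nothing in the sources used here says whether more than 1 culture was grown.

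The members, the other lists and the rule for genes named (all members by role, full values for those past 2-fold, at the extremes or of smallest p) were chosen with earlier results of these data known. Alternatives were the scaling, background, offset, filter, probe choice, series matrix and, in the model, a trend and leaving out each array. Other steps ran in Python 3.11.15 (pandas 2.3.3, numpy 2.4.6) with figures from matplotlib 3.10.9.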

Additional observations from a re-analysis of the deposited data

Results flagged for a closer look

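Of the 18 members past 2-fold with the ORF siRNA in Miapaca, 4 lay on the other side of the control in BXPC3, with 1 array on each side and the difference between the lines not tested. Of the 542 genes at least 2-fold lower with that siRNA in Miapaca and measured in both lines, 115 (21.2%) lay above control in BXPC3. The members' share was close to this, so the count is not particular to them. BUB1B differed by -1.11 on the log2 scale in Miapaca and 0.0968 in BXPC3. NDC80 differed by -1.19 and 0.0865 in the same order. SMC4 differed by -1.07 and 0.0366, and ECT2 by -1.25 and 0.25. These are brightest-probe values, and a dimmer SMC4 probe detected on all arrays differed by 0.04 in Miapaca and -0.20 in BXPC3. The SMC4 contrast between the lines thus depended on the probe. In BXPC3 the brightest-probe values of BUB1B, NDC80 and SMC4 turned below 0 under common-median scaling. That of ECT2 did not under the 5 other scalings and background settings run. Dose and transfection reagent differed between the lines as well.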

How the results depend on the processing

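Among values that answer a comparison, 194 stayed within 1.5 times their main value under an alternative, 16 moved by more and none reversed. A count of 0 that stayed 0 was scored as stayed, and counts cannot reverse, so this tally is no measure of robustness. For single members 1767 values stayed and 302 moved, a tally with no separate class for a turned sign. Signs of single members did turn with the scaling, among them CDC20, PTTG1, INCENP and KIF23 with the ORF siRNA in Miapaca under common-median scaling. Scaling each array to a common median gave 38, 32 and 33 members at least 2-fold lower for the ORF siRNA, the 3UTR siRNA and the line, with medians of -1.32, -1.13 and -1.17, and medians of -0.83 and -0.63 in the model for siRNA and line. Leaving out 1 array at a time gave 0 to 1 members called for siRNA, with medians from -0.69 to -0.28, and 0 to 17 for line, with medians from -0.69 to -0.25. The siRNA median nearest 0 came without the Miapaca control array, where the BXPC3 arrays alone set the estimate. Leaving out either BXPC3 array gave the same siRNA fit, and leaving out either control array the same line fit. Of the 18 members past 2-fold with the ORF siRNA, the series matrix kept 12, and of the 10 with the 3UTR siRNA 8. Those lost were CDK1, BUB1B, ESPL1, CENPE, HMMR and DLGAP5 with the ORF siRNA, and BUB1B and HMMR with the 3UTR siRNA. Without background correction 14 and 7 were kept, with BUB1B, ESPL1, CENPE and HMMR lost for the ORF siRNA and CKS2, BUB1B and HMMR for the 3UTR siRNA. With the mean of detected probes 16 and 6 were kept. The scaling to probes detected on every array was chosen after seeing the data. The labels give no replicate numbers to pair, and cell line was a term of the model.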
